A study of Mus musculus with 9 samples.

Results

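The report follows 10 mouse liver genes of folate, serine and glycine one-carbon metabolism: Shmt1, Shmt2, Mthfd1, Aldh1l1, Ftcd, Mthfs, Gldc, Amt, Gcsh and Slc25a32. They were chosen by name for their place in the pathway, not by their values, from 54532 genes listed. All 10 passed the filter on low values, a mean of at least 0.5 FPKM (fragments per kilobase of exon, scaled for library depth) over the 9 libraries, as did 11852 genes in all.

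The 9 libraries came from mouse liver and fall into 3 groups of 3. One group was wild type on plain drinking water, another was Cth knockout on plain drinking water, and the last was Cth knockout whose drinking water held 1% betaine. Cth encodes cystathionine gamma-lyase, which cleaves cystathionine to cysteine. Betaine is a methyl donor for homocysteine in liver and becomes dimethylglycine in that reaction. No group of wild type mice had betaine, so the betaine comparison was made within the knockout alone. The knockout allele, strain, sex and age are not given in the sources used here. Nothing there says that the replicates of a group were separate animals. Sex-linked transcripts, given below, part wild type replicate 3 from the others of its group, so not all wild type libraries came from the same animal. The p-values measure the spread between these samples, which may otherwise be technical.

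Folate carries single carbon units between amino acids and nucleotides, in separate cytosolic and mitochondrial pools. Serine hydroxymethyltransferases split serine into glycine and a folate-bound carbon. The mitochondrial glycine cleavage system breaks glycine down and passes a further carbon to folate, and liver is a main site of it. Liver also burns surplus units to carbon dioxide and takes up those from histidine breakdown.

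Read totals recovered from the deposited values were 15184973 to 17473958 per library. Cth checked the labels: it stood at 285, 257 and 219 FPKM in wild type, at 0.583, 0.278 and 0.770 in the knockout and at 0.319, 0.309 and 0.781 with betaine. Its log2 fold change was -7.95 ± 0.23 (SE) in the knockout (limma adjusted p = 3.36e-07). The 6 hepatocyte markers summed to 32140 to 65122 FPKM in every library, and kidney markers to at most 0.0676 FPKM. Wild type replicate 3 stood apart: Xist was at 26.6 FPKM there and at most 0.0124 in the other libraries, while Ddx3y, Eif2s3y, Kdm5d and Uty had 0 reads there and at least 157 elsewhere. That is a female pattern, and all other libraries had a male one. By these transcripts wild type mixed the sexes and both knockout groups did not. In wild type replicate 3 the summed sinusoidal endothelial markers, 57.0 FPKM against 19.7 to 35.6, and stellate markers, 46.0 against 15.9 to 36.5, were also the highest. Member differences from wild type are therefore given with and without it.

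In all, 5 members passed the test in at least 1 comparison: Shmt2, Aldh1l1, Gldc, Amt and Slc25a32. The stretch just before the transcription start is shown for the 4 of them that had a RefSeq entry (assembly GRCm38.p6), because these are the promoters of the members whose RNA differed between groups. Each run stops before the first annotated exon base, distances are counted back from the RefSeq start, and capitals mark matches, on either strand, to the CCAAT box or the GC box (letters GGGCGG).

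Aldh1l1: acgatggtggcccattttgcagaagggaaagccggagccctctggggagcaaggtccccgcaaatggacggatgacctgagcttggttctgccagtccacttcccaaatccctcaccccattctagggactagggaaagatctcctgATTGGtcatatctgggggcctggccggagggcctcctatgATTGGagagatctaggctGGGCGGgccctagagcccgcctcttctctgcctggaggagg

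Shmt2: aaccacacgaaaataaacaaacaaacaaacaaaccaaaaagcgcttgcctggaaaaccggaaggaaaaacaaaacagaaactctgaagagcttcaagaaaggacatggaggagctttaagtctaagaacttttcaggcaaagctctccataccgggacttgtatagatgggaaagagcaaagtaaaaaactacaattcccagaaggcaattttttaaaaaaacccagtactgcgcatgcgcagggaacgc

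Gldc: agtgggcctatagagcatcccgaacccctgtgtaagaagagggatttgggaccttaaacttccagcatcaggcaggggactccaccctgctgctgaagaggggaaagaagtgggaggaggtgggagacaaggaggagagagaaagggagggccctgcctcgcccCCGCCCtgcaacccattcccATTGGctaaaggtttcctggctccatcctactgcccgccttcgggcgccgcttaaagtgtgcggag

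Amt: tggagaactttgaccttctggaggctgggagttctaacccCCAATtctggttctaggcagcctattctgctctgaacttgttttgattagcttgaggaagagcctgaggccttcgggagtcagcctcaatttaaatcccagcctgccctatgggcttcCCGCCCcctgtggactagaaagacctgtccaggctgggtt

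The Aldh1l1 stretch is chr6:90550543-90550788 on the plus strand, inside the GENCODE span of the gene (chr6:90486427-90600203), and holds reverse matches of the CCAAT box at 103 and 63 bases before the start and 1 forward match of the GC box (GGGCGG) at 45. The Gldc stretch is chr19:30175442-30175691 on the minus strand, with the CCAAT box reversed at 66 and the GC box reversed at 86 bases before the start. The Amt stretch is chr9:108296655-108296852 on the plus strand, with the CCAAT box at 210 and the GC box reversed at 92. The Shmt2 stretch, chr10:127522445-127522694 on the minus strand, holds neither, and its GC content is 40.8% where the median of all promoters is 52.4%. In all, 4 motifs were searched on both strands of the 250 bases before the start, and none of the matches given here overlaps another. The CCAAT box occurs in 33.9% of 32851 promoter windows of that length. The GC box occurs in 32.7%. The amino acid response motif TGATGNAA occurs in 3.45%, and the E-box with the letters CACGTG in 6.02%. No window of the 9 members with an entry held either of the last 2. Of the members not called, Gcsh, Shmt1 and Mthfd1 also held both the CCAAT box and the GC box. Mthfs held the GC box only and Ftcd neither, so these boxes do not set the called members apart. The motifs were picked after the sequences were seen, and a match is a description of the letters only. Slc25a32, whose exons lie within chr15:39091231-39112716 on the minus strand, is named only.

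The levels of the 10 genes, per kilobase of exon, spanned a wide range. Aldh1l1 was the highest, at a mean of 289.9 FPKM over all libraries, and Mthfs the lowest, at 0.596. The order from high to low was Aldh1l1, Ftcd, Shmt2, Gldc, Mthfd1, Gcsh, Shmt1, Amt, Slc25a32 and Mthfs. Ranges over the 9 libraries overlapped between each pair of neighbours from Ftcd to Shmt1. Shmt2 exceeded Gldc in 6 of 9 libraries, Gldc exceeded Mthfd1 in 5, and Mthfd1 exceeded Gcsh in 6. The cytosolic formyl-folate dehydrogenase was thus the most abundant of these messages, and the mitochondrial folate carrier and the salvage enzyme Mthfs were the 2 least abundant.

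**Figure D1:**
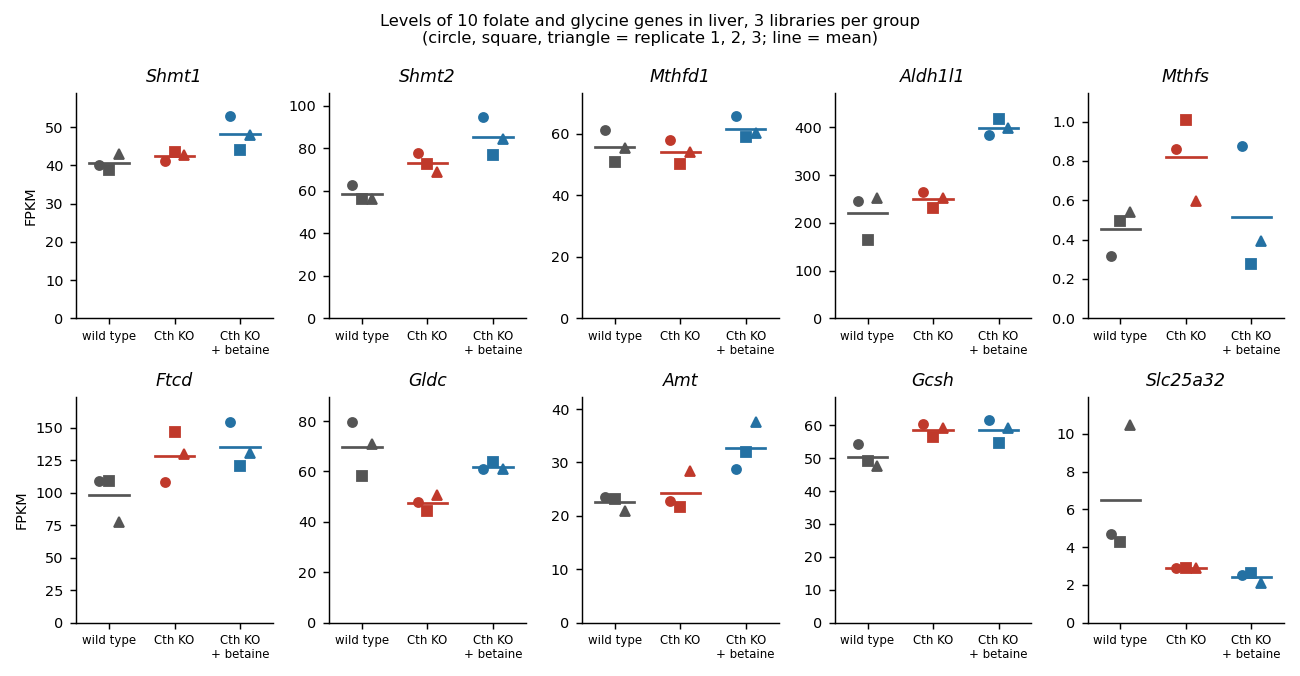
FPKM (vertical axes, from 0, a scale of its own in each panel) of the 10 genes in the 3 groups on the horizontal axis; each point is a library, its shape the replicate number, and the line the group mean. Aldh1l1 lies at 384 to 417 FPKM in the betaine group and at 264 or less in the others, Gldc is lowest in the knockout, and the Slc25a32 mean in wild type is raised by 1 library at 10.4 FPKM.

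In the knockout against wild type, 2 of the 10 members fell and 0 rose (limma, Benjamini-Hochberg adjusted p under 0.05, n = 3 libraries per group). Gldc, the glycine decarboxylase of glycine cleavage, and Slc25a32, the carrier of folate into mitochondria, were the 2. Of all genes tested, 25.6% passed in this comparison, 12.8% higher and 12.7% lower, so 2 of 10 is near the background. The median log2 fold change of the members was 0.15, beside 0.015 over all genes. At an unadjusted p under 0.05 there were 3 members, Shmt2 (log2 0.32 ± 0.13) with the other two, beside 4742 of 11852 genes, and limma voom on recovered reads also called 2. Groups did not overlap for 5 members, higher for Shmt2, Mthfs and Gcsh and lower for Gldc and Slc25a32, where 46.8% of all genes did not overlap. Without wild type replicate 3 the same count stood, 0 higher and 2 lower, where 2567 of 11852 genes passed. With each library's trend of value against exon length removed, 0 members passed, where 2164 of 11849 genes did. Rescaling to TPM (each library divided by its own FPKM sum) shifted the median of all genes to -0.36, with 13.8% of calls higher against 50.1% on the deposited scale, and added Mthfd1 to the members lower (-0.46, limma adjusted p = 0.0261). Marker sums of some other cells differed in this comparison, and those of others overlapped. The 6 sinusoidal endothelial markers, none at 0, summed to 31.5 to 57.0 FPKM in wild type, 23.5 to 31.1 in the knockout and 19.7 to 31.2 with betaine, so that every wild type library lay above all others, and 1 of 6 was called lower in each comparison with wild type. The 6 Kupffer cell and macrophage markers, none at 0, summed to 99.1 to 153 FPKM, 77.1 to 93.8 and 58.7 to 154 in the same order, with 0 called. Stellate markers summed to 15.9 to 46.0, 24.1 to 29.9 and 22.3 to 36.5 FPKM. Bile duct markers summed to 20.9 to 46.7, 22.0 to 45.7 and 19.9 to 41.7. Of the stellate, bile duct and lymphocyte markers 0 were called. The 3 pancreas markers, of which Cpa1 was at 0 in all libraries and 1 was tested, summed to 5.54 to 6.41 FPKM in wild type. They summed to 11.9 to 14.5 in the knockout and 8.26 to 12.8 with betaine, so every wild type library lay below all others. The 1 tested was called higher in each comparison with wild type. Of the 6 hepatocyte markers, 2 were called higher in the knockout and 0 with betaine against wild type. Their part in the members' values was not tested. In bulk liver, fewer cells of a type and less RNA per cell cannot be told apart.

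Betaine in the knockout gave 0 members past the threshold in either direction, against 0.0422% of all genes (5 genes). An unadjusted p under 0.05 was reached by 3 members, Aldh1l1, Gldc and Amt, near the 22.5% of all genes that reached it, and limma voom called 0 members. The 5 genes became 878 without betaine replicate 1 and 273 without wild type replicate 3, with 0 members called in either. The members' median log2 fold change was 0.18, beside -0.0016 for all genes. Groups did not overlap for 6 members, where 30.3% of all genes did not overlap. Shmt1, Mthfd1, Aldh1l1, Gldc and Amt lay higher with betaine and Slc25a32 lower. In the number of genes and members called, this comparison moved with scaling more than the others. The median of all genes moved slightly more in the knockout against wild type, from 0.015 to -0.36 under TPM scaling. Under TPM scaling, which shifted the median of all genes to 0.33, 1754 genes and 6 members (Shmt1, Shmt2, Mthfd1, Aldh1l1, Gldc and Amt) were called, all 6 members higher. The scaling of the deposited values itself sets the median of all genes near 0, so that value does not tell which scale is right. The FPKM of a library summed to 533733 to 584197 in the knockout, 379601 to 477667 with betaine and 373773 to 449224 in wild type. The cause of that difference was not tested.

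The betaine-supplemented knockout against wild type gave 3 members higher, Shmt2, Aldh1l1 and Amt, and 1 lower, Slc25a32. Of all genes, 11.7% passed, 5.87% higher and 5.78% lower. The members' median log2 fold change was 0.23, beside 0.0050 over all genes, and 5 members had an unadjusted p under 0.05, beside 30.5% of all genes. Groups did not overlap for 7 members, higher for Shmt1, Shmt2, Aldh1l1, Ftcd, Amt and Gcsh and lower for Slc25a32, against 32.2% of all genes. Without wild type replicate 3 there were 2 higher and 1 lower, since Amt no longer passed, where 1421 of 11852 genes passed. With the exon length trend removed there were also 2 and 1, where 1055 of 11849 genes passed. This comparison shares its wild type libraries with the first and its betaine libraries with the second, so the 3 are not independent.

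**Figure D2:**
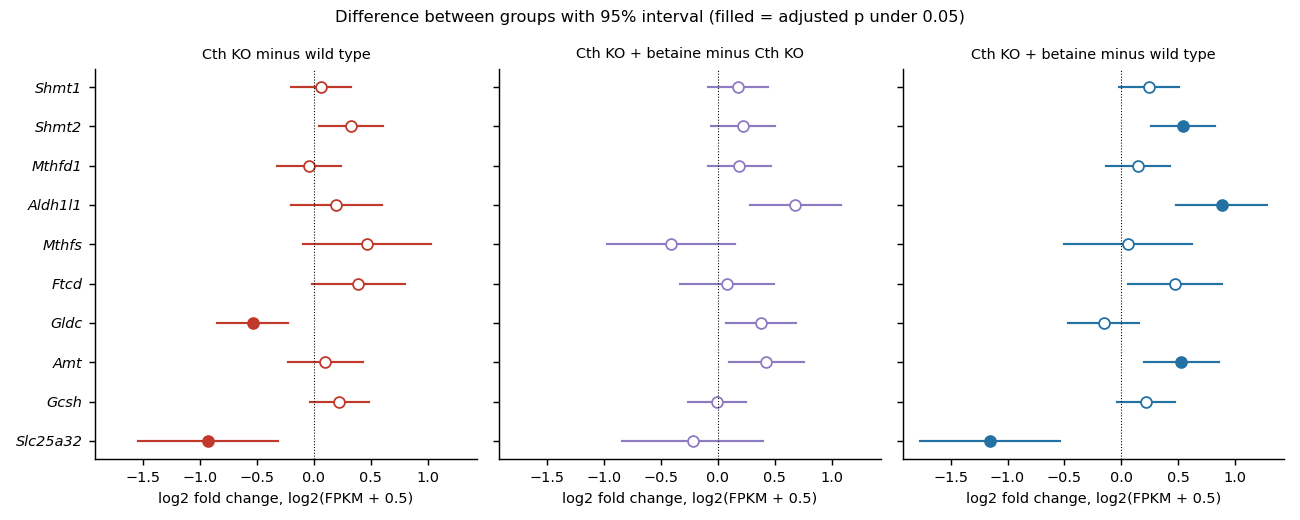
Log2 fold change on the log2(FPKM + 0.5) scale (horizontal axis) of each gene in the 3 comparisons, with the 95% interval of the fit as a line; filled points have an adjusted p under 0.05 over 11852 genes. Gldc and Slc25a32 are filled on the low side in the knockout, none is filled in the middle panel, and Shmt2, Aldh1l1 and Amt (higher) and Slc25a32 (lower) are filled against wild type with betaine.

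The serine hydroxymethyltransferases come as a cytosolic enzyme, Shmt1, and a mitochondrial one, Shmt2. Shmt2 stood at 62.5, 56.2 and 56.2 FPKM in wild type, at 77.9, 72.5 and 68.7 in the knockout and at 94.6, 77.0 and 84.4 with betaine. Every knockout library lay above every wild type library, and the betaine libraries overlapped the knockout only through replicate 2 at 77.0. Against wild type the betaine group was 1.46-fold higher (log2 0.54 ± 0.13, limma adjusted p = 0.0279), and 0.52 (adjusted p = 0.0407) without wild type replicate 3. The knockout alone differed by log2 0.32 ± 0.13 (adjusted p = 0.0860; 0.30 without that library) and betaine from knockout by 0.22 ± 0.13 (adjusted p = 0.321), neither past the threshold. The call against wild type was lost, at adjusted p = 0.0522 to 0.0857, when wild type replicate 1 or 2, knockout replicate 2 or betaine replicate 1 or 3 was left out.

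Shmt1 stayed within a narrower band. It stood at 40.1, 38.7 and 43.1 FPKM in wild type, at 41.0, 43.5 and 42.8 in the knockout and at 52.9, 44.0 and 48.0 with betaine. The 3 betaine libraries were the highest of the 9, yet the difference from the knockout was 0.18 ± 0.12 on the log2 scale (limma adjusted p = 0.382). Its 95% interval ran from -0.081 to 0.44. The knockout differed from wild type by 0.063 (adjusted p = 0.712) and the betaine group by 0.24 (adjusted p = 0.192), and without wild type replicate 3 these were 0.11 and 0.29. Exons of Smcr8 overlap those of Shmt1 on the other strand over 184 bases, and the strand of the kit is not given in the sources used here, so reads of the 2 genes cannot be told apart there. Smcr8 averaged 3.63 FPKM.

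Aldh1l1, the cytosolic dehydrogenase that oxidises formyl-tetrahydrofolate to carbon dioxide, carried the largest rise among the members. It stood at 246.8, 163 and 253 FPKM in wild type, at 264, 231 and 252 in the knockout and at 384, 417 and 398 with betaine. The betaine libraries lay far above all 6 others, which overlapped one another, and wild type replicate 2 was the lowest of the 9. With betaine it was 1.84-fold higher than wild type (log2 0.88 ± 0.18, limma adjusted p = 0.0179), and 0.99 (adjusted p = 0.0133) without wild type replicate 3. Against the knockout the rise was 1.61-fold (log2 0.68 ± 0.18, 95% interval from 0.28 up to 1.08), with unadjusted p = 0.00359 and limma adjusted p = 0.0965, so it missed the threshold. Knockout and wild type differed by 0.20 ± 0.18 (adjusted p = 0.430), or by 0.31 (adjusted p = 0.235) without wild type replicate 3. Over the 22 alternative settings the call against wild type held in 20, and was lost with only the 6 libraries of the 2 groups (adjusted p = 0.0641) and without betaine replicate 3 (adjusted p = 0.0649). Reads are many here, 11281 to 34895 per library, so counting error is small beside the spread of libraries. A gene model on the other strand shares 499 exon bases with Aldh1l1 and averaged 0.345 FPKM.

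Mthfd1, the cytosolic enzyme with 3 activities that interconverts methylene-, methenyl- and formyl-folate, showed no call. It stood at 61.4, 50.7 and 55.5 FPKM in wild type, at 57.9, 50.2 and 54.0 in the knockout and at 65.9, 58.9 and 60.1 with betaine. The betaine libraries lay above the knockout and overlapped wild type. The knockout differed from wild type by log2 -0.046 ± 0.12 (limma adjusted p = 0.807) and betaine from knockout by 0.19 ± 0.12 (adjusted p = 0.388). The first value was -0.048 without wild type replicate 3.

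Mthfs returns 5-formyl-tetrahydrofolate to the active pool. Its level was low, at 0.316, 0.497 and 0.543 FPKM in wild type, 0.862, 1.01 and 0.598 in the knockout and 0.878, 0.276 and 0.391 with betaine. The knockout lay above wild type in every library, whereas the betaine libraries spread over the whole range. No comparison passed (limma adjusted p = 0.188, 0.351 and 0.901 in the order knockout against wild type, betaine against knockout and betaine against wild type). The differences from wild type, log2 0.47 and 0.056, became 0.54 and 0.13 without wild type replicate 3. The reads were 38 to 113 per library. Its exon model is 7638 bases long and shares 262 bases with another model on the same strand, listed at 0 FPKM, so its value is uncertain.

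Ftcd transfers the formimino group from histidine breakdown to folate. It stood at 108.9, 108.8 and 77.5 FPKM in wild type, at 108.6, 147 and 129.6 in the knockout and at 154, 121 and 131 with betaine. Wild type replicate 3 was the lowest of the 9 libraries, and the betaine libraries lay above all wild type ones. None of the comparisons passed: the knockout differed from wild type by log2 0.39 ± 0.18 (limma adjusted p = 0.143) and betaine from wild type by 0.47 ± 0.18 (adjusted p = 0.120). Both shrank without wild type replicate 3, to 0.23 (adjusted p = 0.341) and 0.31 (adjusted p = 0.243).

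Glycine cleavage needs 4 proteins, of which Gldc (the P protein, which removes the carboxyl group), Amt (the T protein, which hands the carbon to folate) and Gcsh (the lipoylated H protein that shuttles between them) are members. Gldc stood at 79.7, 58.3 and 71.0 FPKM in wild type, at 47.8, 44.2 and 50.6 in the knockout and at 61.1, 63.9 and 60.9 with betaine. The knockout was the lowest group, with no library overlapping either of the others, and the betaine libraries fell within the wild type range. In the knockout Gldc was 1.45-fold lower than wild type (log2 -0.54 ± 0.14, limma adjusted p = 0.0219), and -0.52 (adjusted p = 0.0396) without wild type replicate 3. Betaine differed from knockout by 0.38 ± 0.14 (adjusted p = 0.154) and from wild type by -0.16 ± 0.14 (adjusted p = 0.476; -0.14 without that library). Removing the exon length trend left the fall at -0.35 (adjusted p = 0.0802), and leaving out wild type replicate 1, knockout replicate 1 or knockout replicate 2 gave adjusted p = 0.0755, 0.0576 and 0.0908. The Gldc exon model spans 6091 bases. Over all genes, log2 fold change and exon length correlated at Spearman -0.46 in the knockout against wild type. The correlation was 0.29 for betaine against knockout and -0.30 for betaine against wild type. The part of length in the Gldc result beyond that refit was not tested.

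Hepatocyte zones were checked beside it. The 7 periportal markers, none at 0 and with Hal and Sds among them, summed to 2370 to 3809 FPKM in wild type, 2846 to 3050 in the knockout and 2146 to 2769 with betaine, and 0 of 7 passed in the knockout by limma. The 7 pericentral markers, none at 0, summed to 2971 to 4043, 4077 to 5017 and 3366 to 4759, with 2 higher and 1 lower in the knockout. In the betaine group against wild type 1 periportal marker was lower, and 2 pericentral markers were higher and 1 lower. Wild type replicate 3 had the highest periportal and the lowest pericentral sum. Their part in the members' values was not tested.

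Neither Amt nor Gcsh passed the test in the knockout. Amt stood at 23.5, 23.2 and 20.8 FPKM in wild type, at 22.8, 21.7 and 28.3 in the knockout and at 28.7, 32.0 and 37.6 with betaine. The 3 betaine libraries were the highest, the nearest of them only just above knockout replicate 3. Against wild type Amt was 1.44-fold higher with betaine (log2 0.53 ± 0.15, limma adjusted p = 0.0484). This call was the least stable of the members: it held in 5 of 22 alternatives, was lost on leaving out any 1 of the 9 libraries (adjusted p = 0.0559 to 0.158), and without wild type replicate 3 stood at 0.47 (adjusted p = 0.0846). Betaine differed from knockout by 0.43 ± 0.15 (adjusted p = 0.145) and knockout from wild type by 0.10 ± 0.15 (adjusted p = 0.637), the latter 0.046 without wild type replicate 3.

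Gcsh stood at 54.3, 49.0 and 47.6 FPKM in wild type, at 60.4, 56.5 and 59.3 in the knockout and at 61.7, 54.6 and 59.3 with betaine. Both knockout groups lay above wild type and overlapped each other. The knockout differed from wild type by log2 0.22 ± 0.11 (limma adjusted p = 0.173), and betaine from knockout by -0.0063, with a 95% interval of -0.26 to 0.25 (adjusted p = 0.982). The betaine group differed from wild type by 0.22 (adjusted p = 0.234). Both differences from wild type were 0.18 without wild type replicate 3. The knockout value had the other sign under TPM scaling, -0.19 (adjusted p = 0.197), and after removal of the length trend, -0.048.

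Ratios of 2 members within a library do not depend on the scaling between libraries. They were added after the members' values were seen. With 3 libraries against 3 the exact two-sided permutation test cannot go below p = 0.1. The lowest value of that test adjusted over the 15 ratio comparisons was 0.15. The ratio of Gldc to Gcsh was 1.38 ± 0.168 (SD, n = 3) in wild type, 0.809 ± 0.0386 in the knockout and 1.06 ± 0.0954 with betaine. No library of one group overlapped another group in this ratio, with the knockout lowest and the betaine group between. Betaine replicate 2, at 1.171, lay just below wild type replicate 2, at 1.19. The exon models differ in length, 6091 bases for Gldc and 1579 for Gcsh, and once the trend with exon length was removed the log2 difference of this pair between knockout and wild type shrank from -0.76 to -0.31, that between betaine and knockout from 0.39 to 0.21 and that between betaine and wild type from -0.37 to -0.098. The ratio of Gldc to Amt was 3.10 ± 0.508 in wild type, 1.97 ± 0.164 in the knockout and 1.92 ± 0.263 with betaine, so both knockout groups lay below wild type and overlapped each other. With the length trend removed the difference of that pair from wild type shrank from -0.64 to -0.31 in the knockout and from -0.68 to -0.46 with betaine.

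The mitochondrial to cytosolic ratio, Shmt2 to Shmt1, was 1.44 ± 0.129 in wild type, 1.72 ± 0.155 in the knockout and 1.77 ± 0.0188 with betaine. Again both knockout groups lay apart from wild type and overlapped each other (exact permutation p = 0.7 between them). The knockout difference of that pair from wild type was 0.26 as fitted and 0.17 with the length trend removed. Aldh1l1 to Mthfd1, which sets formyl-folate oxidation beside its interconversion, was 3.93 ± 0.670, 4.61 ± 0.050 and 6.51 ± 0.630 in the same order. As with Gldc to Gcsh, no library of one group overlapped another group, with wild type lowest and betaine highest. The gap between wild type and knockout was small, 4.555 in wild type replicate 3 against 4.567 in knockout replicate 1. With the length trend removed, the difference of that pair from wild type was 0.25 in the knockout (0.24 as fitted) and 0.74 with betaine (0.74 as fitted). Amt to Gcsh, at 0.448 ± 0.0215, 0.413 ± 0.0559 and 0.562 ± 0.0869, overlapped in each pair of groups.

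**Figure D3:**
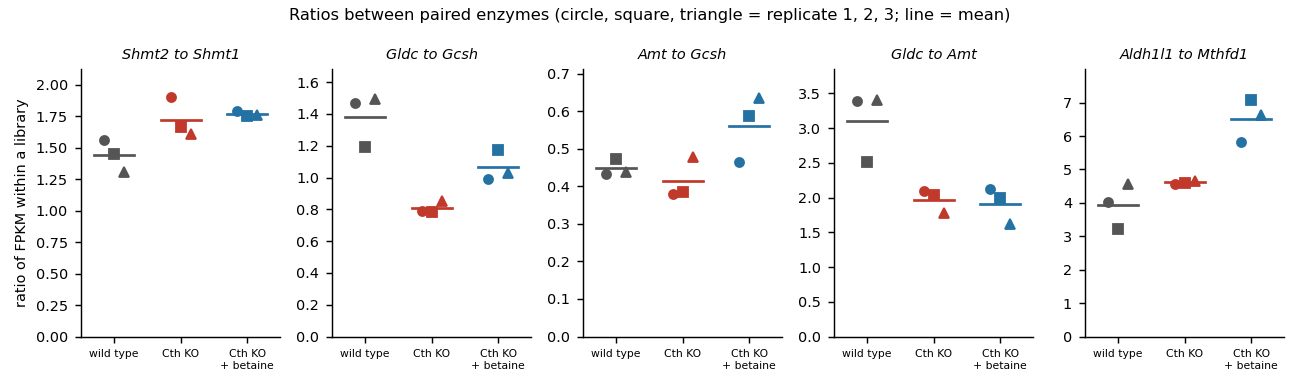
Ratio of the FPKM of 2 genes within a library (vertical axes, from 0) in the 3 groups on the horizontal axis; points are libraries, with the shape giving the replicate number, and lines are group means. Gldc to Gcsh (means 1.38, 0.809 and 1.06) and Aldh1l1 to Mthfd1 (highest with betaine, mean 6.51) each separate all 3 groups. Shmt2 to Shmt1 and Gldc to Amt part wild type from both knockout groups.

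Slc25a32 carries folate across the inner mitochondrial membrane. It stood at 4.70, 4.26 and 10.4 FPKM in wild type, at 2.88, 2.89 and 2.90 in the knockout and at 2.53, 2.65 and 2.09 with betaine. Wild type replicate 3 was more than 5 FPKM above its own group's others, all wild type libraries lay above all knockout ones, and the betaine libraries lay lowest. Slc25a32 was 1.91-fold lower in the knockout (log2 -0.93 ± 0.27, limma adjusted p = 0.0358). Without wild type replicate 3, which also stands apart in its sex-linked transcripts, the fall was smaller at -0.55 and still passed (adjusted p = 0.0252). With betaine it was 2.22-fold lower than wild type (log2 -1.15 ± 0.27, adjusted p = 0.0306), or -0.77 (adjusted p = 0.0121) without that library. Betaine and knockout differed by -0.22 ± 0.27 (adjusted p = 0.665).

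The knockout call of Slc25a32 was lost when the exon length trend was removed (-0.75, limma adjusted p = 0.0757; exon model 6081 bases), and also when knockout replicate 1, 2 or 3 was left out (adjusted p = 0.0823, 0.0991 and 0.0853). The call with betaine against wild type held at -1.05 with the length trend removed, and was lost without knockout replicate 2 or betaine replicate 1 or 3 (adjusted p = 0.0515, 0.0735 and 0.0991). In both comparisons every alternative kept the lower direction.

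**Figure D4:**
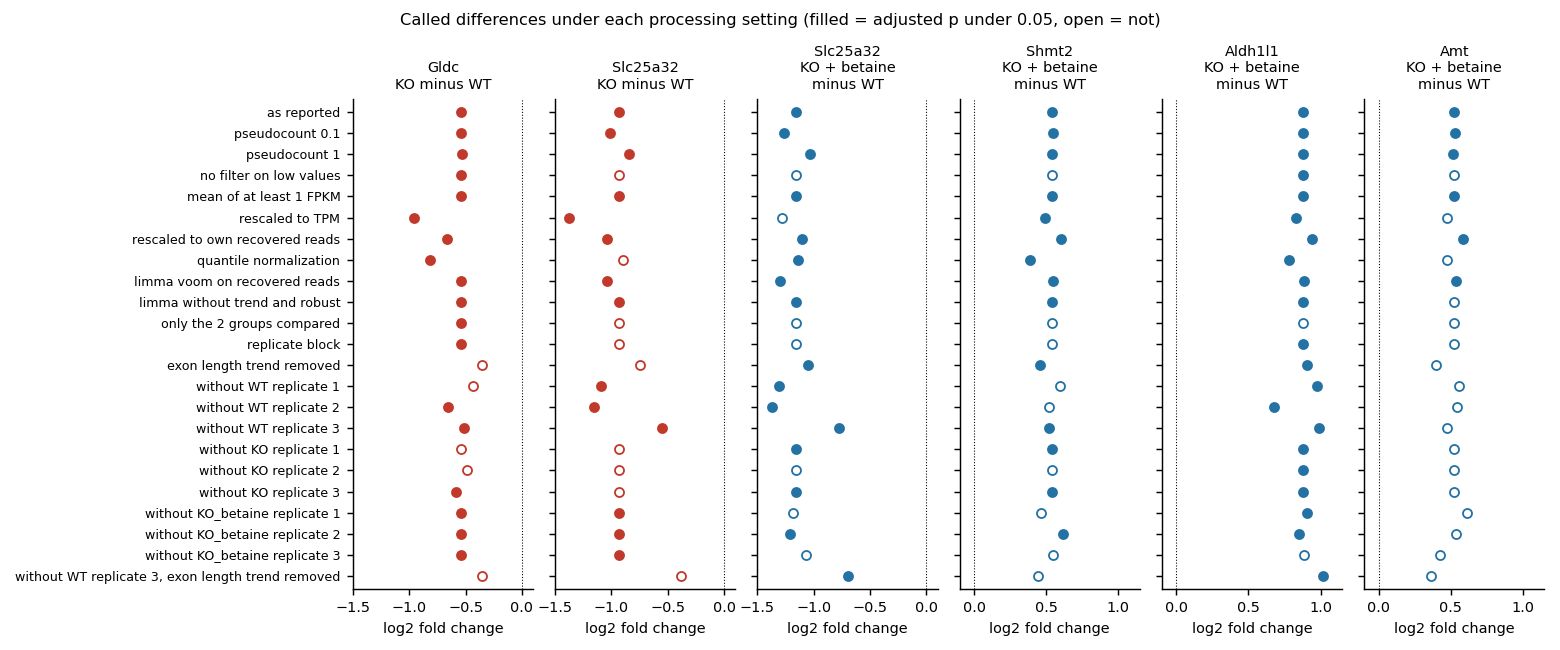
Log2 fold change (horizontal axes) of the 6 member differences that passed as reported, under the reported setting and 22 alternatives (rows); filled points have an adjusted p under 0.05. Each difference keeps its direction in every row, while the call is kept in 17 (Gldc), 13 and 15 (Slc25a32), 13 (Shmt2), 20 (Aldh1l1) and 5 (Amt) of 22 alternatives.

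The patterns over the 9 libraries were also set beside those of 4596 genes averaging 5 FPKM or more, as Pearson correlations of log2(FPKM + 0.5) given as a description only. The 9 libraries share their 3 groups and 1 scaling, which raises such values. Nearest to Shmt2 were Mrps16 (0.98), Zfyve21 (0.98) and Pxmp2 (0.97). Nearest to Aldh1l1 were Ddah1 (0.98), Mtap (0.97) and Abhd16a (0.97). Gldc was closest to Tmem63b, Snx4 and Slc25a23 (each 0.95), and Amt to Ssu72 (0.96), Yars2 (0.94) and Slc36a1 (0.93). Slc25a32 was closest to Il6ra, Acnat2 and Map3k5 (each 0.98).

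Around the 10 genes, 43 others of the pathway were counted in 6 lists, of which 36 passed the filter on low values. In the knockout 2 rose (Agxt2 and Gcat) and 2 fell (Gart and Gnmt), with a median of 0.044 and 10 at an unadjusted p under 0.05. Both counts are below the shares over all genes, 25.6% called and 4742 of 11852 at an unadjusted p under 0.05. Leaving out wild type replicate 3 gave 3 higher and 1 lower, with Fpgs in and Gart out, where 2567 of 11852 genes passed. With betaine against knockout 0 passed by limma, with a median of 0.0063 and 10 at an unadjusted p under 0.05 (22.5% of all genes), and limma voom called 0. Without wild type replicate 3 there was 1 higher, Atic (0.79, limma adjusted p = 0.0444), where 273 of 11852 genes passed. Under TPM scaling 10 related genes were called, where 1754 of all genes were. With betaine against wild type 3 rose (Dmgdh, Agxt2 and Gcat) and 0 fell, with a median of 0.082, where 11.7% of all genes passed, and 10 were at an unadjusted p under 0.05 (30.5% of all genes). A fit that left out wild type replicate 3 gave 4 higher (Agxt2, Gcat, Fpgs and Atic, the last named after its values were seen) and 1 lower. In that fit 1421 of 11852 genes passed. Of the 5 genes called as reported, all but Gart belong to glycine production and use.

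Gnmt methylates glycine to sarcosine and was the most abundant of the related genes. It stood at 1530, 1209 and 1267 FPKM in wild type, at 833, 583 and 697 in the knockout and at 1010, 1524 and 1445 with betaine. The knockout lay below both other groups (log2 -0.93 ± 0.21 against wild type, limma adjusted p = 0.0138), and betaine differed from knockout by 0.90 ± 0.21 (adjusted p = 0.0886). The knockout call held in 21 of 22 alternatives, at -0.96 (adjusted p = 0.0226) without wild type replicate 3, and was lost without knockout replicate 2 (adjusted p = 0.0631). Like Gldc, Gnmt was lowest in the knockout with no overlap.

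Gcat, which splits 2-amino-3-ketobutyrate from threonine breakdown into glycine and acetyl-CoA, rose most. It stood at 6.21, 5.82 and 4.89 FPKM in wild type, at 18.1, 17.7 and 13.8 in the knockout and at 15.5, 9.44 and 13.3 with betaine. Both knockout groups lay above wild type, by log2 1.47 ± 0.19 (limma adjusted p = 0.00546) and 1.09 ± 0.19 (adjusted p = 0.0116), and both calls held in all 22 alternatives, at 1.38 and 1.00 without wild type replicate 3. Tdh, the enzyme before it in threonine breakdown, was listed at 0 in every library.

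Agxt2, a mitochondrial aminotransferase that makes glycine from glyoxylate, also rose in both knockout groups, by log2 0.70 ± 0.17 (limma adjusted p = 0.0201) and 0.76 ± 0.17 (adjusted p = 0.0272). Leaving out wild type replicate 3 gave 0.54 (adjusted p = 0.0381) and 0.60 (adjusted p = 0.0388). The first call held in 18 of 22 alternatives, and was lost without knockout replicate 2 or 3 (adjusted p = 0.0789 and 0.0512), under TPM scaling (0.29, adjusted p = 0.0958), and without wild type replicate 3 and the length trend together (adjusted p = 0.0502). The second held in 16, and was lost without wild type replicate 2 or betaine replicate 1 or 3 (adjusted p = 0.0658 to 0.0858), with no filter (adjusted p = 0.0687), with only the 2 groups compared (adjusted p = 0.0820), and without wild type replicate 3 and the length trend together (adjusted p = 0.0528). Dmgdh, which takes the methyl group of dimethylglycine to folate, stood at 175, 143 and 127 FPKM in wild type, at 169, 159 and 132 in the knockout and at 218, 228 and 254.0 with betaine. All betaine libraries lay above the other 6 (log2 0.66 ± 0.16 against wild type, adjusted p = 0.0320), but without wild type replicate 3 the difference was 0.56 (adjusted p = 0.0526). The call held in 13 of 22 alternatives, and among single libraries left out it was also lost without wild type replicate 2, knockout replicate 2 or any 1 of betaine replicates 1 and 3 (adjusted p = 0.0554 to 0.112). Sardh, the next enzyme, which demethylates sarcosine to glycine, lay at 214 to 221 FPKM with betaine and at 156 to 193 in the other groups without passing (0.42 ± 0.12 against knockout, adjusted p = 0.119). Agxt, the peroxisomal glyoxylate aminotransferase, differed from wild type by 0.48 ± 0.26 in the knockout (adjusted p = 0.187).

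Among the other folate enzymes 11 of 14 were tested. Gart, an enzyme of purine synthesis that uses formyl-folate, fell from 5.09, 3.98 and 5.14 FPKM to 3.70, 2.51 and 2.99 in the knockout (log2 -0.56 ± 0.17, limma adjusted p = 0.0431), and stood at 3.69, 5.13 and 4.93 with betaine. The call held in 11 of 22 alternatives. Among others, it was not past the threshold without wild type replicate 3 (adjusted p = 0.0947), without wild type replicate 1, knockout replicate 2 or 3 or betaine replicate 3 (adjusted p = 0.0585 to 0.152), or with the length trend removed (adjusted p = 0.0928). Fpgs, which adds glutamates to folate and was the most abundant of this list, differed by 0.49 ± 0.17 in the knockout (adjusted p = 0.0574) and by 0.53 ± 0.17 with betaine against wild type (adjusted p = 0.0686). Without wild type replicate 3 both passed (adjusted p = 0.0203 and 0.0226). The mitochondrial enzymes Mthfd1l, Mthfd2l and Aldh1l2 averaged 0.123, 0.325 and 0.0288 FPKM and were below the filter.

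The remaining lists held no call by limma. Of folate uptake 3 of 4 were tested, with 0 at an unadjusted p under 0.05 in any comparison. Of all genes, 40%, 22.5% and 30.5% were under it in the 3 comparisons. The proton-coupled transporter Slc46a1 averaged 15.0 FPKM and the reduced folate carrier Slc19a1 1.33 FPKM. Slc46a1 differed by 0.060 in the knockout but by -0.35 under TPM scaling (adjusted p = 0.0459). Of serine synthesis, use and import 5 of 7 were tested. Beside the same shares of all genes, 1 had an unadjusted p under 0.05 in the knockout, the mitochondrial serine importer Sfxn1, and 0 in the other comparisons. Serine dehydratase, Sds, ranged from 34.1 FPKM in a betaine library to 189 in wild type replicate 3. Serine racemase, Srr, averaged 12.3 FPKM (knockout against wild type -0.30 ± 0.14, limma adjusted p = 0.136). The serine synthesis genes Phgdh and Psat1 averaged 0.115 and 0.391 FPKM, below the filter.

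Partners of glycine cleavage, all 4 tested, had 2, 1 and 0 genes at an unadjusted p under 0.05, beside 40%, 22.5% and 30.5% of all genes. Dld, the L protein that reoxidises Gcsh, stood at 35.3, 32.2 and 33.7 FPKM in wild type, at 29.0, 24.6 and 25.5 in the knockout and at 30.3, 38.8 and 37.1 with betaine. It was lowest in the knockout, as Gldc was, but did not pass (log2 -0.35 ± 0.13, limma adjusted p = 0.0757). Lias, lipoyl synthase, averaged 5.49 FPKM with a difference of 0.069 ± 0.13 (adjusted p = 0.726). Of the 3 histidine enzymes before Ftcd, Uroc1 and Amdhd1 averaged 97.9 and 90.4 FPKM. Beside the same shares of all genes, 0, 1 and 1 of the 3 had an unadjusted p under 0.05. That gene was Hal, histidine ammonia-lyase, chosen here after its values were seen: it lay at 93.0 to 122 FPKM with betaine and 61.6 to 66.7 in the knockout (0.70 ± 0.16, limma adjusted p = 0.0886). By limma voom these 4 lists gave 0 calls.

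**Figure D5:**
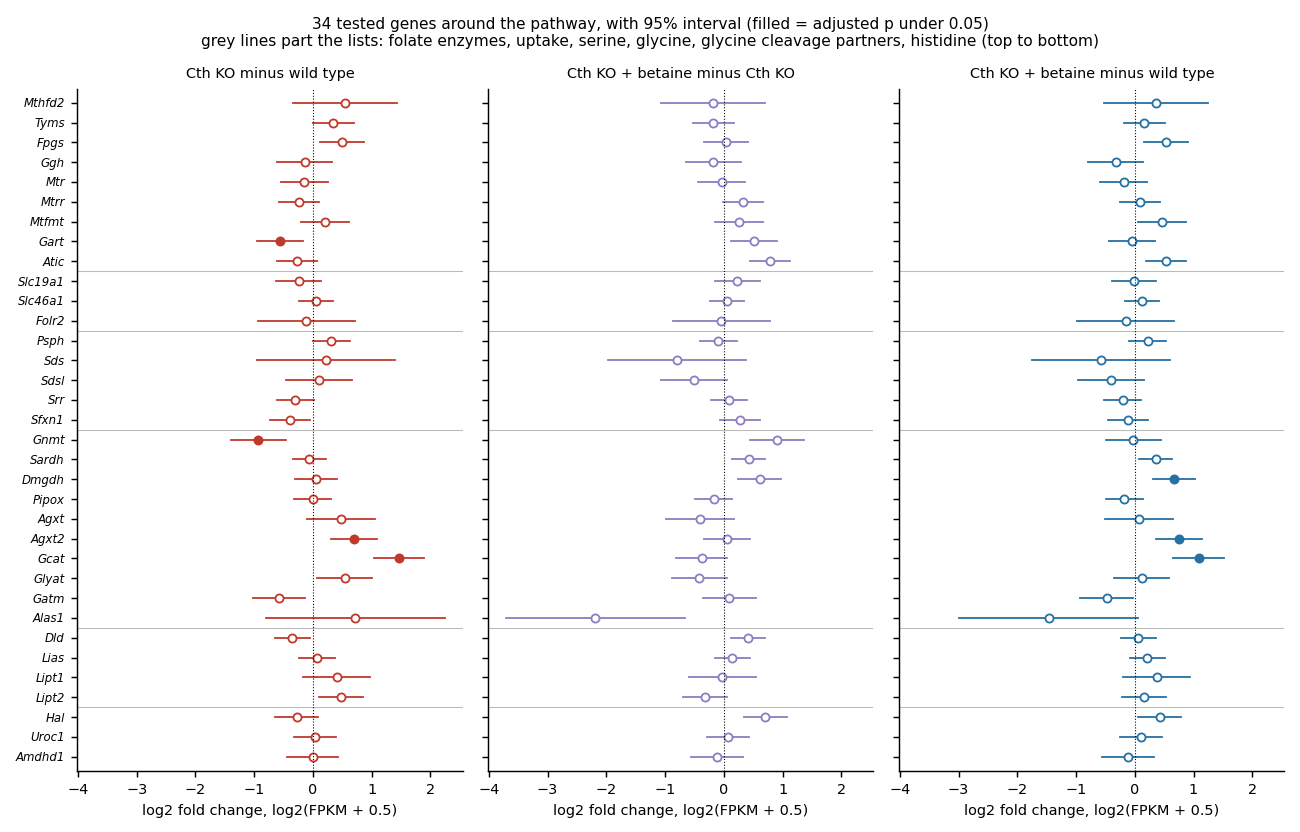
Log2 fold change on the log2(FPKM + 0.5) scale (horizontal axis) with its 95% interval for 34 of the 36 tested related genes in the 3 comparisons; grey lines part the 6 lists and filled points have an adjusted p under 0.05. Filled points are Gart and Gnmt (lower) and Agxt2 and Gcat (higher) in the knockout, none with betaine against knockout, and Dmgdh, Agxt2 and Gcat (higher) with betaine against wild type.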

How the data were processed

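Poly(A) RNA of 9 mouse liver libraries was sequenced after an NEBNext Ultra preparation, per the labels' protocols. For 54532 genes the authors deposited FPKM, 1 per library. DESeq2 1.16.1, HISAT2 2.0.5, featureCounts 1.5.0-p3 and build mm10 are named, without roles, in the submitters' processing notes. Reads were recovered with GENCODE M21 exon lengths (54495 genes): among values worth 20 reads or fewer, 98.3% to 98.6% came out whole (tolerance 0.05). The denominators, 13513377 to 18528020 reads, equal median-of-ratios size factors to within 0.000285 log2, so these FPKM carry such factors in place of read totals. In a 1 kb gene 3 reads equal 0.162 to 0.222 FPKM, counting error only.

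Symbols were matched for 54409 genes. Values were log2(FPKM + 0.5), which understates changes of low genes. One limma 3.58.1 fit (R 4.3.3, lmFit, eBayes with trend and robust) of all 9 libraries gave 3 contrasts, two-sided, Benjamini-Hochberg adjusted over 11852 genes, threshold 0.05. On simulated data it recovered 3.45%, 0% and 2.63% of true log2 changes of 0.5 in the 3 comparisons. Of changes of 1 it recovered 37.1% to 48%, with 4 to 10 false calls. The simulation held fewer changed genes than were called here against wild type. A member that did not pass is therefore not shown to be unchanged. Tables and figures used Python 3.11.15, pandas 2.3.3, numpy 2.4.6, scipy 1.17.1 and matplotlib 3.10.9. The alternatives were 2 other pseudocounts, 2 other filters, 3 scalings, voom, plain limma, only the 2 groups compared, a replicate block, removal of the exon length trend, and leaving out libraries.

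Named were all members, Cth, the related genes past the threshold and up to 2 others per list with the highest mean, and for each called member the 3 genes with the nearest pattern. The members, lists and tests were chosen with earlier results of these data known. Promoter sequences are from RefSeq (GRCm38.p6), matched by symbol for 9 of 10 members. Some related genes are not reported here.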

Additional observations from a re-analysis of the deposited data

How the results depend on the processing

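No member difference changed sign with a call on either side, and the 6 that passed kept their direction under all 22 alternatives, while every one lost its call under some. In the knockout 3029 genes and 2 members were called. The members called were 1 with no filter (1865 genes), 1 after quantile normalization (3059), 1 with only the 2 groups compared (2891) and 1 with the replicate block (2210). They were 0 with the exon length trend removed (2164 genes), and 0 with that and wild type replicate 3 left out (1859 genes). Leaving out 1 library gave 896 to 3231 genes and 0 to 2 members. Under TPM 4262 genes were called, 13.8% of them higher, and with own read totals 3121, 37.5% higher, against 50.1% as reported.

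Betaine against knockout gave 5 genes as reported, 2 of them higher, and 8 and 10 with pseudocounts of 0.1 and 1, 1 with no filter, 67 with own read totals (80.6% higher), 0 by voom, 0 by limma without trend and robust, 35 with only the 2 groups, 0 with the replicate block and 10 with the length trend removed. TPM gave 1754 genes (95.8% higher) and 6 members. Leaving out 1 library gave 0 to 878 genes, 878 without betaine replicate 1, 273 without wild type replicate 3, and 151 when the length trend was also removed, with 0 members throughout. Unadjusted p under 0.05 held for 2672 genes.

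Betaine against wild type gave 1381 genes and 4 members as reported, 531 and 1 with no filter, 353 and 0 with only the 2 groups, and 671 and 1 with the replicate block. It gave 1074 and 2 under TPM, and 1298 and 2 without wild type replicate 3 and the length trend. Own read totals gave 1515 genes, 69.6% higher against 50.4%. Leaving out 1 library gave 351 to 1441 genes and 0 to 3 members. Of single related genes, Slc46a1 in the knockout reversed, from 0.060 to -0.35, under TPM.

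The labels do not say that a replicate number is shared by anything, so the numbers were not taken to pair the samples. Same-numbered libraries of different groups correlated at -0.23 to 0.098 in their deviations from group means, and differently numbered ones at -0.14 to 0.26. The cause of the changes between settings was not tested. Low reads limit Mthfs most, at 38 to 113 per library.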
